A study of Mus musculus with 6 samples.

Results

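Microglia are the resident macrophages of the retina, and 10 genes that define them were followed through the H3K27ac peaks of bulk retina: Cx3cr1, P2ry12, Tmem119, Aif1, Csf1r, Trem2, Tyrobp, Cd68, Itgam and Spi1. The list was given by gene name and not by a measured value. All 10 were found among 21911 protein-coding genes of the GENCODE annotation of GRCm38 (the mm10 build). H3K27ac, acetylation of histone H3 at lysine 27, is found at active promoters and enhancers, and was measured by chromatin immunoprecipitation and sequencing (ChIP-seq). The retinas came from wild-type mice that were 3 months old at the initial pressure elevation. In the 4xIOP group, 3 eyes had gone through 4 elevations of the intraocular pressure (IOP) to 30 mmHg, and in the control group 3 contralateral eyes were left untreated. All 6 retinas were taken on day 2 after the last elevation, and each is represented by 1 peak list (n = 3 per group).

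The members of the list cover the working parts of a microglial cell. CX3CR1, the receptor of the neuronal chemokine CX3CL1, CSF1R, the receptor of CSF1 and IL-34 on which microglial survival depends, and the purinergic receptor P2RY12, which steers processes towards extracellular ADP, read signals from the tissue. TREM2 binds lipids and apolipoproteins and signals through its adaptor TYROBP (DAP12). ITGAM is the alpha chain of complement receptor CR3, AIF1 (IBA1) is an actin-binding protein, CD68 is a lysosomal glycoprotein and TMEM119 is a membrane protein used as a microglial label. SPI1 (PU.1) is the ETS factor that sets up myeloid promoters and enhancers, and it binds purine-rich sites with a GGAA centre. Microglia are rare in the retina, in which rods outnumber every other cell type. In a bulk sample, fewer cells of a type and less acetylation per cell cannot be told apart.

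The control lists held 21893, 19913 and 36509 peaks and the 4xIOP lists 20338, 20804 and 16195, and values for a group of 3 lists are given here in the order of replicates 1, 2 and 3. The deposited lists of 4 samples, replicates 1 and 2 of each group, carry a name that belongs to the opposite group. Groups were taken from the labels, and each comparison of the groups below is to be read with this in mind. Sequencing depth is not recorded in the lists. From the fold and the p-value of each peak, the number of fragments at its summit was recovered for 100% of the peaks in every list, and the genome-wide mean background came to between 87.4 and 173 fragments per 10 kb. Where the local background was no higher than that mean, the weakest called peak had between 9 and 12 fragments at its summit and a fold of between 2.88 and 3.65 over background. These values describe the least signal that a promoter needed in order to be listed.

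None of the 10 microglia identity genes had a peak within 2.5 kb of any of its transcription start sites (TSS) in any of the 6 lists, whether the TSS were those of the basic annotation, used throughout unless stated, or all starts in GENCODE and RefSeq. Thus 0 of 60 gene-by-list pairs were marked. Among all protein-coding genes, 48.6%, 46.2% and 56.9% had a promoter peak in the control lists, and 47.4%, 45.6% and 44.6% in the 4xIOP lists. The share of all protein-coding promoters with a peak in no list was 42.4%. Within a list the share of marked promoters among the 10 genes was lower than that of all protein-coding genes by 48.2 ± 4.48 percentage points (SD, n = 6 lists), in 6 of 6 lists. With a share of 0% in every list the sign of this difference was fixed, so it is given as a description, with no p, as are the differences from other cell types below.

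**Figure D1:**
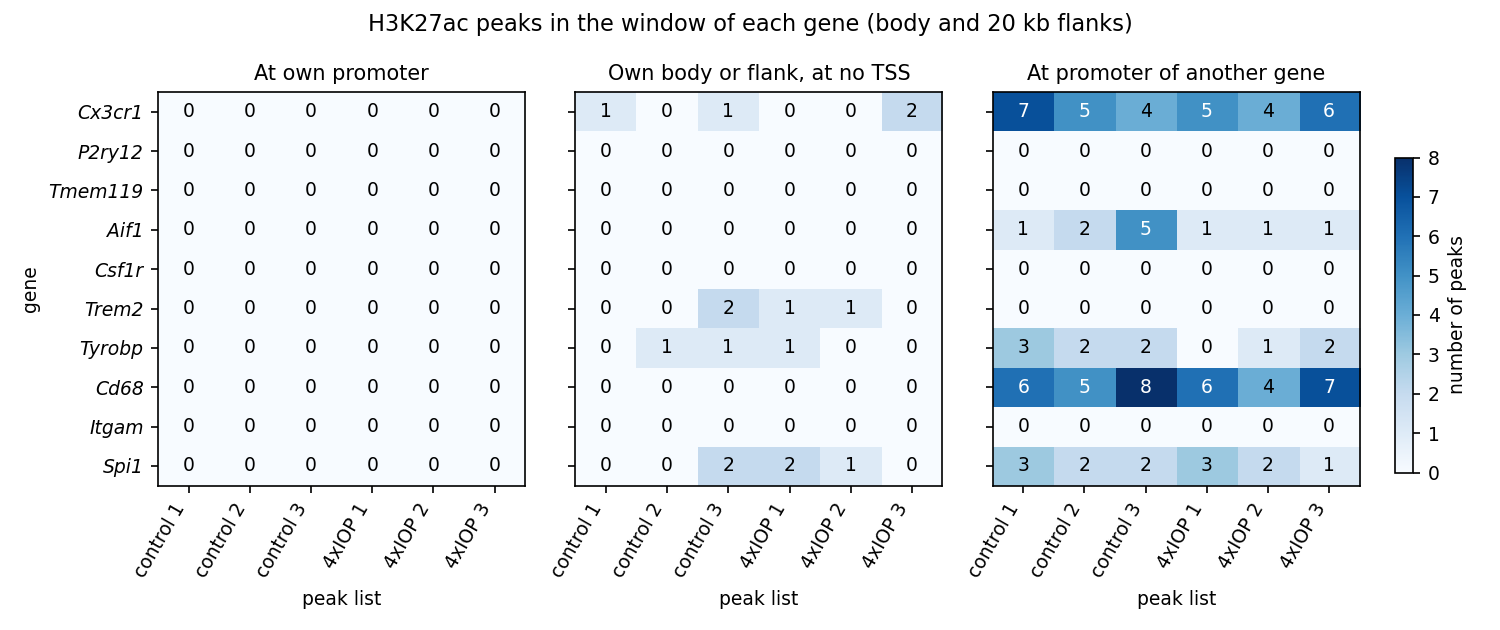
Number of H3K27ac peaks in the window of each microglia identity gene (gene body with 20 kb on either side and 2.5 kb around each TSS), for each of the 6 peak lists. The left panel, peaks at the gene's own promoter, holds 0 in all 60 cells, the middle panel counts peaks at no TSS, and the right panel counts peaks within 2.5 kb of the TSS of another gene, which made up 101 of 117 peaks.

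The genes differed in how far the closest peak lay from their own TSS. Cd68 came closest, with a peak 2.66, 2.66 and 2.7 kb away in the control lists and 2.75, 2.71 and 2.68 kb away in the 4xIOP lists. This peak, just outside the 2.5 kb limit, lay within 2.5 kb of the TSS of Mpdu1, a gene for a protein needed for the use of dolichol-linked mannose. For Tyrobp the closest peak was 6.24 to 8.00 kb away (median 7.93 kb), for Aif1 7.01 to 8.05 kb (median 7.97 kb), and for Spi1 5.56 to 25.9 kb (median 20.1 kb). The Spi1 distances are from its only TSS in the basic annotation, chr2:91096096, which lies inside the annotated span, and from all starts in GENCODE and RefSeq, the most upstream at chr2:91082374, they were 3.29 to 12.2 kb (median 6.35 kb). The nearest peak to Trem2 was 8.47, 8.76 and 8.82 kb away in control replicate 3 and 4xIOP replicates 1 and 2, and 62.3 to 62.4 kb away in the other 3 lists. Tmem119 had its nearest peak at 27.2 to 28.6 kb, Cx3cr1 at 30.0 to 40.6 kb, Csf1r at 52.5 to 70.7 kb, P2ry12 at 43.0 to 528 kb and Itgam at 94.7 kb in every list.

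Of the 10 genes, 4 had no peak in the gene body or within 20 kb of it in any list: P2ry12 (ENSMUSG00000036353.13, chr3:59216272-59262871, minus strand), Tmem119 (ENSMUSG00000054675.5, chr5:113793729-113800516, minus strand), Csf1r (ENSMUSG00000024621.16) and Itgam (ENSMUSG00000030786.18, chr7:128062640-128118491, plus strand). The share of all protein-coding genes with no peak in this wider window was 29.0%, so that 4 of 10 is near that background. P2ry12 and Itgam span 46.6 and 55.9 kb, and the absence of peaks therefore covered long windows as well as the short one of Tmem119, whose span is 6.79 kb. All 4 encode surface proteins of microglia, and the peak lists held no call for them to compare between the groups.

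The windows of the other 6 genes held 117 peaks over the 6 lists, of which 101 (86.3%) lay within 2.5 kb of the TSS of another gene. The remaining peaks were 6 inside the annotated gene body at no TSS and 10 in the flanks at no TSS. Merging overlapping peaks across lists gave 32 regions, of which 23 lay at the TSS of another gene and 9 at none, whereas 48.0% of all 39950 merged regions lay at no TSS, and 8 of the 32 regions were called in all 6 lists. All 8 lay at neighbours' promoters.

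Cd68 (ENSMUSG00000018774.13, chr11:69664213-69666153, minus strand) had the most peaks in its window, 36 over the 6 lists, and each of them lay at the TSS of a neighbour. The promoter of Eif4a1, the RNA helicase of translation initiation, 5.95 kb upstream of Cd68, had a fold of 5.77, 6.17 and 9.01 over background in the control lists and of 5.89, 5.25 and 7.41 in the 4xIOP lists. The Mpdu1 promoter had folds of 5.04, 5.63 and 5.81 in the control lists and of 5.36, 4.67 and 3.16 in the 4xIOP lists. Both neighbours were marked in all 6 lists and the groups overlapped at both, while the 1.94 kb gene between them had no peak. Peaks at the TSS of Sox15, of Senp3 and of Tnfsf13 made up the others.

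Aif1 (ENSMUSG00000024397.14, chr17:35170991-35176068, minus strand) lies in the gene-dense major histocompatibility complex. Its 11 window peaks all lay at neighbouring TSS. The promoter of Prrc2a was marked in all 6 lists, with folds of 5.68, 7.62 and 7.91 in the control lists and of 5.79, 7.25 and 9.47 in the 4xIOP lists. In control replicate 3, the longest list, peaks also lay at the TSS of Lst1 and of Ltb, a pair of immune genes next to Aif1, with folds of 4.90 and 3.49 and summits of 16 and 12 fragments. No other list held them.

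Tyrobp (ENSMUSG00000030579.10, chr7:30413760-30417585, plus strand) lies beside Hcst, which encodes the related adaptor DAP10. A region 8.41 kb downstream of the Tyrobp TSS, within 2.5 kb of the TSS of Hcst and of Nfkbid, was called in 5 lists, with folds of 3.31, 3.51 and 4.36 in the control lists and of 4.27 and 3.37 in the lists of 4xIOP replicates 2 and 3. In none of the 5 lists was the TSS of Hcst the one nearest to the peak, so that the call belongs at least as much to Nfkbid, which encodes an atypical inhibitor of NF-kappa-B. At no TSS, a region 19.9 kb upstream of Tyrobp was called in control replicates 2 and 3 (folds of 3.23 and 3.70, 16 and 13 fragments), and another 6.38 kb upstream in 4xIOP replicate 1 (fold of 4.55, 14 fragments).

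The window of Cx3cr1 (ENSMUSG00000052336.7, minus strand) held 35 peaks, but its annotated span in GENCODE, chr9:119901616-120069879, is 168 kb long and runs over Xirp1, Csrnp1, Ttc21a and Gorasp1, whereas the RefSeq span is 19.6 kb. Of the 35 peaks, 31 lay at the TSS of another gene. The shared promoter of Gorasp1 and Ttc21a had folds of 6.28, 5.07 and 7.52 in the control lists and of 6.09, 5.86 and 5.44 in the 4xIOP lists. The 3 regions at no TSS were 30.2 kb, 47.3 kb and 105 kb downstream of the Cx3cr1 TSS, outside the RefSeq gene. They were found in 4xIOP replicate 3, in control replicates 1 and 3, and in 4xIOP replicate 3, with folds of between 3.78 and 4.77. The region at 105 kb overlapped an exon of Ttc21a.

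With RefSeq gene spans in place of those of GENCODE, the peaks inside the body of any of the 10 genes came down to 2, both in an intron of Spi1 (ENSMUSG00000002111.8, chr2:91082390-91115756, plus strand). This region, at chr2:91101659-91102055 with its near edge 5.56 kb downstream of the basic-annotation TSS and 19.3 kb downstream of the RefSeq start, had 19 fragments at its summit and a fold of 4.81 in control replicate 3, and 19 fragments and a fold of 6.28 in 4xIOP replicate 1. The fold in 4xIOP replicate 1 exceeded that of 88.4% of the peaks of its list, and that in control replicate 3 exceeded 65.8%. The other 4 lists had no peak there.

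A further region near Spi1 ended 17.0 kb upstream of the basic-annotation TSS and 3.29 kb upstream of the RefSeq start, and lay outside every gene of the annotation. It was called in control replicate 3 (fold of 4.29, 21 fragments), 4xIOP replicate 1 (4.76, 18 fragments) and 4xIOP replicate 2 (4.31, 15 fragments). Upstream of Trem2 (ENSMUSG00000023992.14, chr17:48346401-48354147, plus strand), a region at chr17:48337169-48337930, 9.02 kb before the TSS and in no annotated gene, was called in the same 3 lists, with folds of 2.95, 2.81 and 3.09 and summits of 39, 30 and 37 fragments. The local background there was 12.5, 10.0 and 11.3 fragments, several times the genome mean of 2.47, 2.01 and 2.12, so that the fold is low although the pile-up is high. Another Trem2 region, 12.1 kb upstream, was called in control replicate 3 alone (fold of 2.42, 31 fragments).

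The upstream Spi1 region and the Trem2 region at 9.02 kb were both held by control replicate 3 and 4xIOP replicates 1 and 2, and the other Spi1 and Trem2 regions at no TSS by 2 and 1 of these 3 lists. They include both groups by label, and they are the 3 lists that carry the control name. Whether the carried name has a part in this was not tested, and the position of a peak in a window of this kind does not assign it to the microglial gene.

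**Figure D2:**
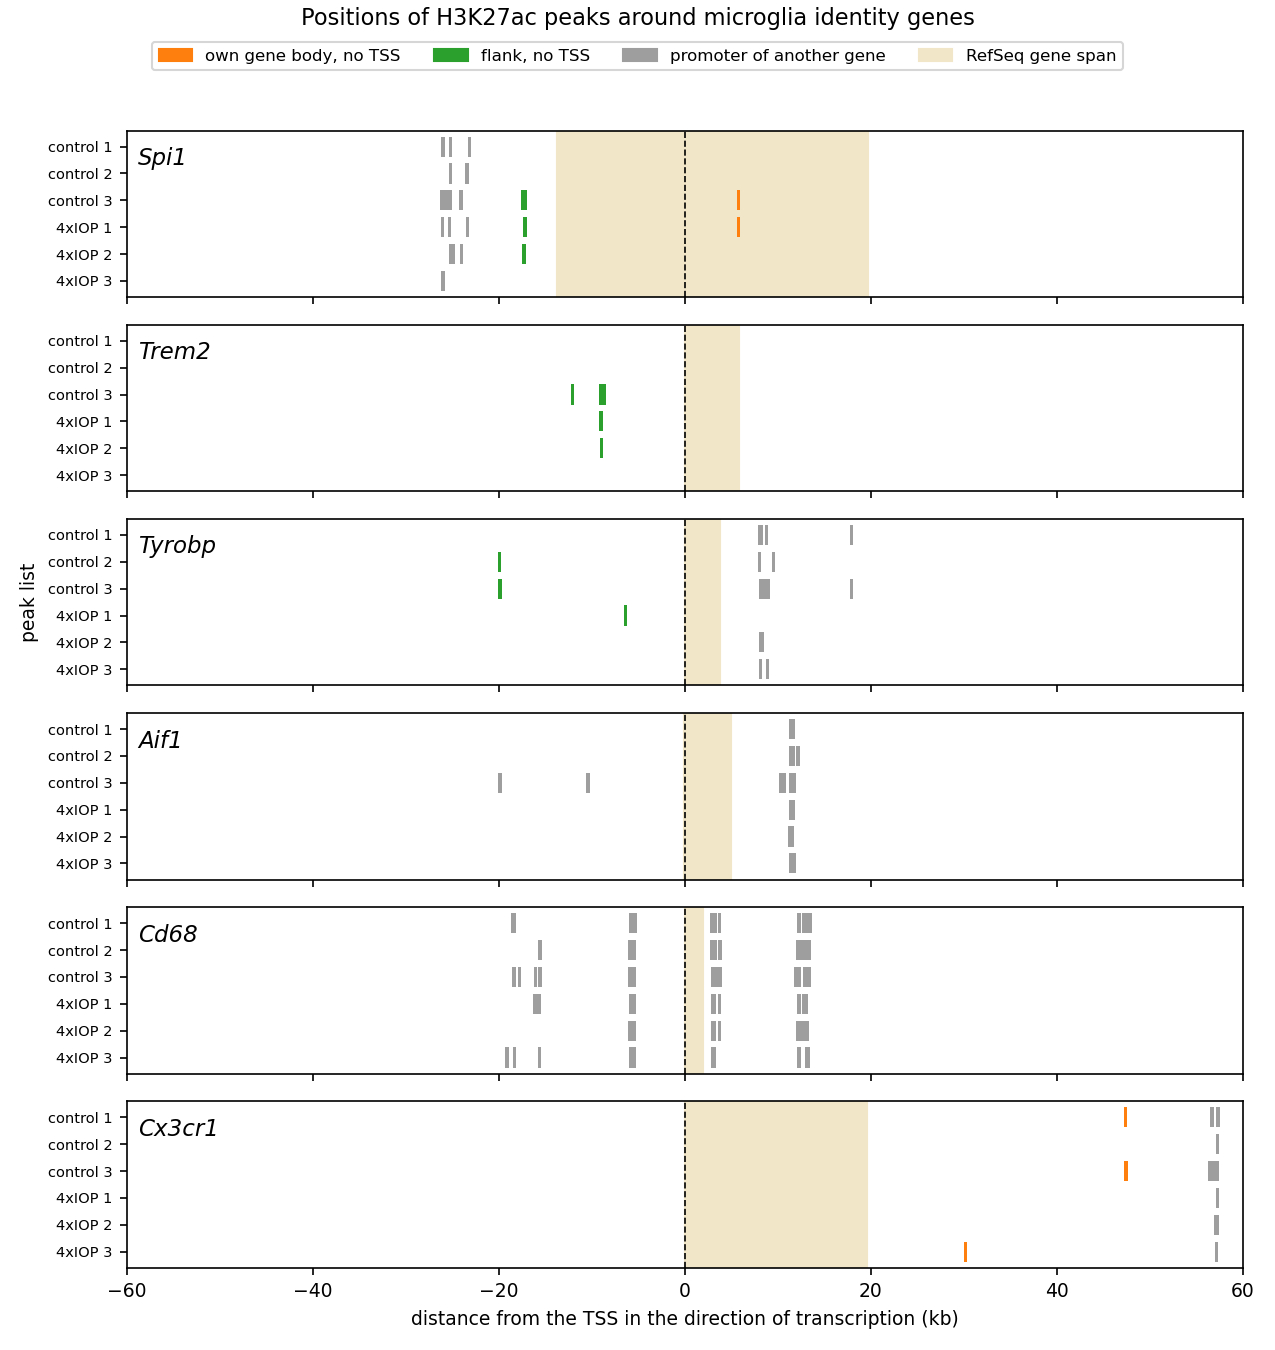
Positions of H3K27ac peaks around 6 microglia identity genes in the 6 peak lists, as distance in kb along the direction of transcription from a TSS of the basic GENCODE annotation (dashed line; for Spi1 this lies inside the RefSeq span, and where a gene has several, the one nearest to the RefSeq start was taken). Bars are peaks coloured by class, with narrow bars widened to be visible, shading is the RefSeq gene span, and peaks beyond 60 kb are not shown. The Spi1 and Trem2 regions at no TSS appear in no list other than control replicate 3 and 4xIOP replicates 1 and 2, and no bar crosses a dashed line.

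The DNA under the Spi1 intron region and the region 9.02 kb before Trem2 is shown because these are the called regions at no TSS nearest to each of these genes. Each run is the 201 bases centred on the summit of the strongest peak (GRCm38, plus strand), and capitals would mark a match to the PU.1 core searched for, GAGGAA on either strand. None of the 9 windows at no TSS in the member windows holds it, whereas 20.1% of the windows of all 19177 TSS-distal regions do.
Spi1, intron, chr2:91101731-91101931: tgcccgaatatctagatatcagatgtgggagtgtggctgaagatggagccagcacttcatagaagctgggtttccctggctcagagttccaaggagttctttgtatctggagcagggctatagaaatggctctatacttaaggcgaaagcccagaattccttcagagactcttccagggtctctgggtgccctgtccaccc
Trem2, 9.02 kb upstream, chr17:48337283-48337483: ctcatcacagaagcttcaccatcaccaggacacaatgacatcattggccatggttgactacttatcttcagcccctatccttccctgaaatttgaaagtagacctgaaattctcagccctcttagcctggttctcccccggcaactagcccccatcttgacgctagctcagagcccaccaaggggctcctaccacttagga
Each of these windows has 2 CpG dinucleotides. That these letters are missing says only that this core is not in these windows.

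The unmarked promoters of the members were themselves poor in CpG. Of the 10 genes, 6 had a promoter in the RefSeq table (GRCm38.p6, 250 bases before to 50 after the start): Cx3cr1, P2ry12, Aif1, Trem2, Cd68 and Itgam. They held 5, 4, 1, 5, 4 and 6 CpG (median 4.5), against a median of 15 over 16517 genes. The GAGGAA core was present in 4 of the 6 on either strand (1 match in Aif1, 1 in Trem2, 2 in Cd68 and 3 in Itgam), and in 27.2% of all 20145 promoters in the table. The sequences of 4 of the unmarked promoters are given with the core in capitals (GAGGAA, or TTCCTC where it lies on the opposite strand), and each is read in the direction of transcription.
Trem2, chr17:48346151-48346450, plus strand: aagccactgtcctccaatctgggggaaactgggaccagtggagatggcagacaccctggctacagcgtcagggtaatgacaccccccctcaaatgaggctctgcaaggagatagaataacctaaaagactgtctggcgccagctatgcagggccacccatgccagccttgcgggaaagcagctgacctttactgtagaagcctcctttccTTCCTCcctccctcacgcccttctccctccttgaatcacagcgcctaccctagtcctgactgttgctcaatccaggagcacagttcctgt
Cd68, chr11:69666121-69666420, minus strand: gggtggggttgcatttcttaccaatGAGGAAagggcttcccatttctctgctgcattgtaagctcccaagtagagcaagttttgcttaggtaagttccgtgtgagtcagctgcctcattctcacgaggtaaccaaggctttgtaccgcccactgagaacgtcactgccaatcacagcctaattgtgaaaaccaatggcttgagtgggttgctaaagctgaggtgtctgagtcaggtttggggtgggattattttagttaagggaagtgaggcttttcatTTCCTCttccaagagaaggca
Itgam, chr7:128062390-128062689, plus strand: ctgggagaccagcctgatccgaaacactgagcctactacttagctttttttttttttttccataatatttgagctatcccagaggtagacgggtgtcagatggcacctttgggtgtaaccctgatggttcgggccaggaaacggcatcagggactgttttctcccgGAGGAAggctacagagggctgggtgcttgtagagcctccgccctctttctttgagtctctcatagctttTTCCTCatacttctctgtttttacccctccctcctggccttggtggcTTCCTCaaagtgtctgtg
Cx3cr1, chr9:120068247-120068546, minus strand: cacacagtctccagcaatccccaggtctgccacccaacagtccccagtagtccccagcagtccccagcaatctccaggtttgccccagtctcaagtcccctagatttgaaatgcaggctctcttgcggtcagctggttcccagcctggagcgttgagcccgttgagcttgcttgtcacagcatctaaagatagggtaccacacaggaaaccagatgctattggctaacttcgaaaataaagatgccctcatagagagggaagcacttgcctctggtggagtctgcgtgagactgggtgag
Itgam had the most matches, 1 of them as GAGGAA and 2 as TTCCTC, and Cx3cr1 had none. A match is a description of the letters and not a binding site.

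Low CpG content went with missing H3K27ac calls across the genome. Of the 5271 genes with at most 6 CpG, the highest number among the members, 86.9% were unmarked in all 6 lists, against 18.6% of the 11246 genes above it. In the narrower range of 4 to 6 CpG, which holds 5 of the 6 members, 74.8% of genes were unmarked. In that of 0 to 1 CpG, which holds Aif1, it was 95.9%. Read against these shares, the 6 of 6 unmarked member promoters are not far from the background. The 6 rod promoters in the table (Pde6b, Sag, Nrl, Nr2e3, Cnga1 and Gngt1) held 2 to 5 CpG (median 4), and all 6 were marked in all 6 lists. The promoter of Nr2e3, which encodes a nuclear receptor of rods, has 5 CpG, as many as Cx3cr1 and Trem2, and is shown for contrast.
Nr2e3, chr9:59950030-59950329, minus strand: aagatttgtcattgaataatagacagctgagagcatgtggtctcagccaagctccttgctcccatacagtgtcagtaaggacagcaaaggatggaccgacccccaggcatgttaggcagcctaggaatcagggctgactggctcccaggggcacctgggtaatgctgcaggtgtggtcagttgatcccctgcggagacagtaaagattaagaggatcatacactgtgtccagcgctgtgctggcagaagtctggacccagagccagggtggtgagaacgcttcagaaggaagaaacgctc
It holds no GAGGAA core on either strand.

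**Figure D3:**
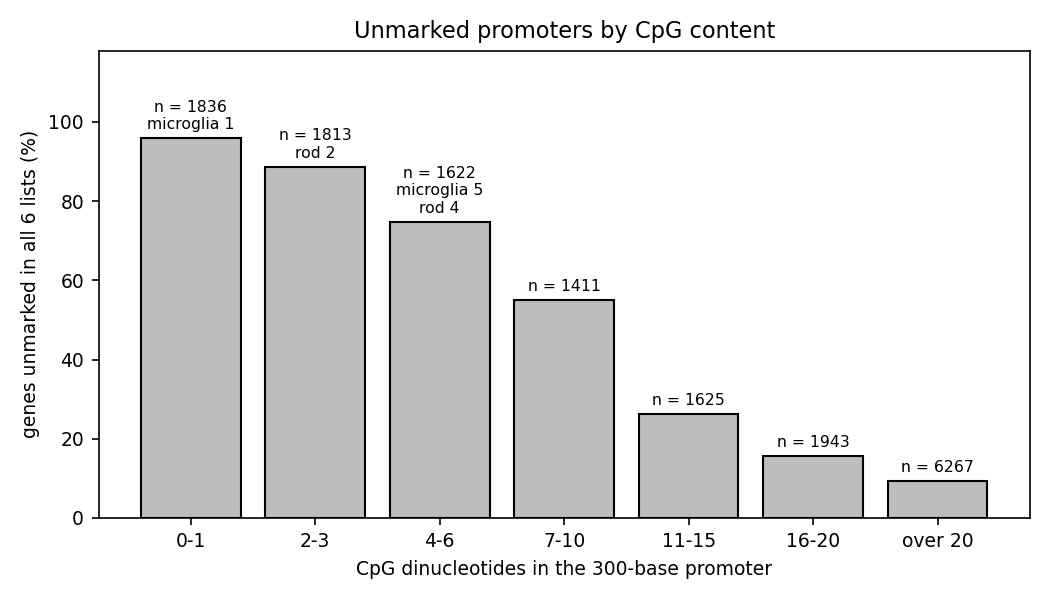
Share of genes whose promoter was unmarked in all 6 lists (bars, %), by the number of CpG dinucleotides in the 300-base RefSeq promoter, with the number of genes in each range above the bar. The 6 microglia identity genes in the table (microglia) fall in the ranges 0-1 and 4-6, where 95.9% and 74.8% of genes were unmarked, and the 6 rod genes, marked in all lists, fall in 2-3 and 4-6.

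The member genes were set beside other cell types of the retina. Rod promoters were marked in 10 of 10 genes in every list, so that the microglial share was lower by 100 points in 6 of 6 lists. Against the glia of the retina, the Müller cells, whose genes were marked at 20% to 50%, the share was lower by 31.7 ± 11.7 points (SD) in 6 of 6 lists. Against endothelial genes, another sparse cell type, it was lower by 6.67 ± 10.3 points and in only 2 of 6 lists, control replicates 1 and 3, while in the other 4 lists both shares were 0%. Retinal ganglion cell genes were marked at 0% to 30%, pigment epithelium genes at 0% to 10%, and the 10 blood leukocyte genes at 0% in each list, the same value as the members. The peak at the promoter of the Müller gene Glul, called in all 6 lists, and those of the endothelial gene Egfl7 and the pigment epithelium gene Pmel, in 1 list each, lay nearest to the TSS of another gene.

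**Figure D4:**
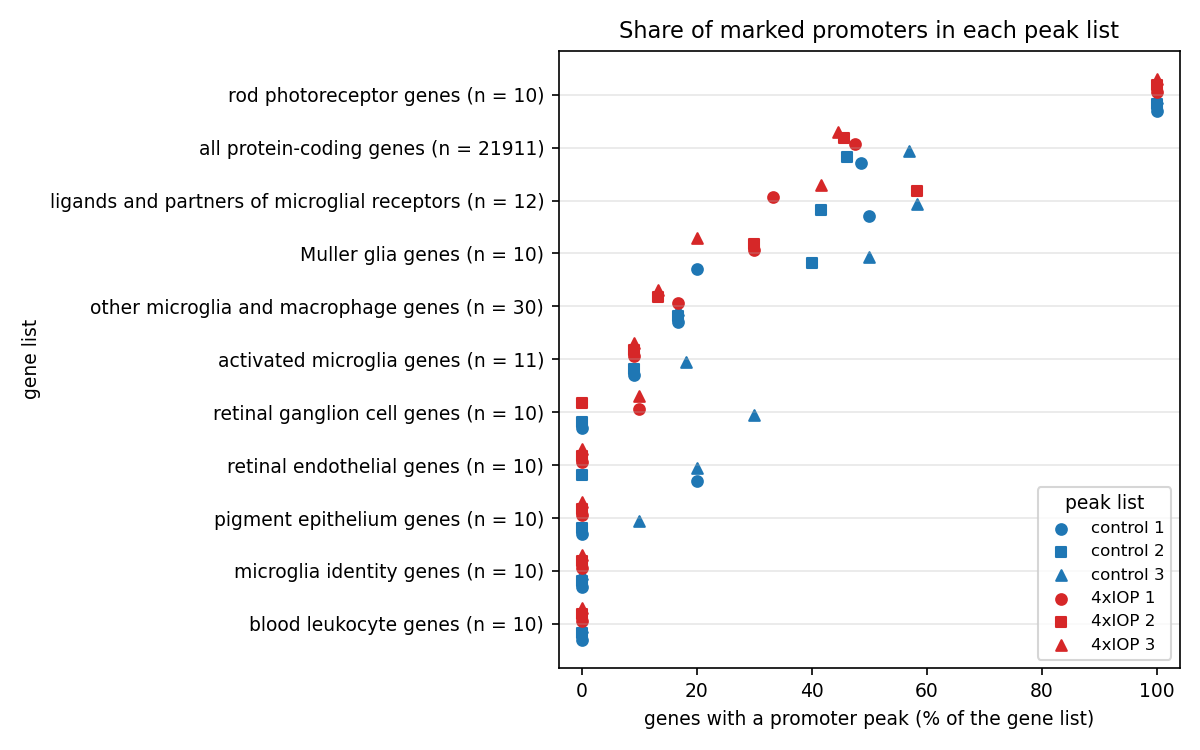
Share of genes with an H3K27ac peak within 2.5 kb of a TSS (x axis, % of the gene list) for 10 gene lists and all protein-coding genes, with 1 point per peak list (blue for control, red for 4xIOP, marker shape for the replicate number). The microglia identity genes sit at 0% in all 6 lists, the rod genes at 100%, and all protein-coding genes between 44.6% and 56.9%.

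Some other genes of microglia and macrophages had promoter peaks, and bulk retina does not say in which cells these lay. Of 30 other microglia and macrophage genes, 3 were marked in all 6 lists, 3 in some and 24 (80%) in none, against 42.4% of all protein-coding genes. Among the genes marked in all lists, Cd14, the co-receptor for lipopolysaccharide, had promoter folds of 4.41, 3.74 and 6.77 in the control lists and of 5.81, 4.44 and 4.04 in the 4xIOP lists. The groups overlapped at this gene.

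Fcer1g, the Fc receptor gamma chain and like Tyrobp an ITAM adaptor, was marked in 5 of 6 lists, in each but 4xIOP replicate 3. Its folds were 3.47 to 4.14, with 58 to 108 fragments at the summit. Irf8, a partner of PU.1, was marked in control replicates 1 to 3 (folds of 5.47, 5.16 and 5.77) and in 4xIOP replicate 3 (4.90), but not in 4xIOP replicates 1 and 2. The complement genes C1qa, C1qb and C1qc, the surface genes Siglech, Gpr34 and P2ry13, and the identity factor Sall1 were marked in no list. Of 11 genes of activated microglia, Ctsd, a lysosomal protease with broad expression, was marked in all 6 lists and Cd9 in 1, where the nearest TSS was that of Gm26728, while 9 (81.8%), among them Cst7, Itgax, Spp1, Lpl and Axl, were marked in none, against 42.4% of all protein-coding genes.

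A list of 12 genes held ligands of the member receptors, signals that restrain phagocytes, and intracellular partners. Of these 12 ligands and partners, 3 were marked in all 6 lists, 4 in some and 5 (41.7%) in none, close to the 42.4% of all protein-coding genes. The 4 include Hcst, whose peak lay nearest to another TSS in every list that held it. Clu is also a member of the Müller list. For CSF1R, the ligand gene Csf1 had promoter folds of 5.25, 4.06 and 9.09 in the control lists and of 4.46, 5.32 and 6.13 in the 4xIOP lists, whereas the other ligand gene, Il34, had no promoter peak in any list. For TREM2, the ligand gene Clu was marked in all 6 lists, with folds of 3.77, 4.48 and 5.09 in the control lists and of 3.72, 3.55 and 3.92 in the 4xIOP lists. Apoe was marked in control replicate 3 and 4xIOP replicates 1 and 2, with folds of 3.73, 3.39 and 3.66.

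Cx3cl1, the ligand gene of Cx3cr1, was picked out for this pairing after its values were known. It was marked in control replicates 1 and 3 (folds of 4.68 and 4.78) and in 4xIOP replicates 2 and 3 (3.28 and 3.37). Cd47 and Cd200, which encode signals that restrain phagocytes, were marked in 6 and 4 lists. Cd47 had folds of 4.29 to 6.91 and Cd200, called in control replicates 1 to 3 and 4xIOP replicate 2, of 3.88 to 6.51. Syk and Plcg2, which act downstream of TYROBP inside the microglial cell, had no promoter peak in any list.

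Whether 4 pressure elevations changed H3K27ac at the microglia identity genes was asked at 4 levels. At the promoters there was nothing to compare, with 0% of the genes marked in each group. The share of the 10 genes with any peak in the window was 53.3% ± 5.77 in the control lists and 56.7% ± 5.77 in the 4xIOP lists (SD, n = 3; p = 1 in an exact permutation test). List by list it was 50%, 50% and 60% in control and 60%, 60% and 50% in 4xIOP, and the lists at 60% are those that carry the control name, so that the sign of this difference depends on whether label or carried name is followed. Among all protein-coding genes this share was 60.6% to 70.0% in the control lists and 59.1% to 61.6% in the 4xIOP lists. For the 10 genes the difference of 3.33 points became 6.67 without control replicate 3 or without 4xIOP replicate 3. It became 1.67 when any other single list was left out. The windows held 21, 17 and 27 peaks in the control lists and 19, 14 and 19 in the 4xIOP lists, a difference in means of -4.33 (exact permutation test, p = 0.4). It was -1.67 without control replicate 3, -2.67 without 4xIOP replicate 2 and -6.67 without control replicate 2. Per 1000 peaks of the list it was 0.851 ± 0.11 in the control lists and 0.927 ± 0.25 in the 4xIOP lists (SD, n = 3; p = 0.7 in an exact permutation test), so that the sign of the difference turned once the length of the lists was taken into account. With 3 lists against 3, no exact permutation test can give a p below 0.1.

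Peaks at an own promoter or in the own gene body numbered 4.67 ± 1.53 in the control lists and 4.33 ± 2.08 in the 4xIOP lists (SD, n = 3; p = 1 in an exact permutation test). Most lay at neighbours' TSS within the long GENCODE span of Cx3cr1. Without peaks at the TSS of another gene they numbered 1, 0 and 2 in each group, and with RefSeq gene bodies 0, 0 and 1 in the control lists and 1, 0 and 0 in the 4xIOP lists. Of all protein-coding promoters, 0.361% were marked in all 3 control lists and no 4xIOP list and 0% the other way round. None of the 10 genes was in either set.

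The 8 window regions called in all 6 lists were compared in limma on normal scores of the rank of their fold within each list, fitted over 10529 such regions. Of these, 0 passed an adjusted p of 0.05 (0% of all regions tested), and 333 had an unadjusted p under 0.05. The 8 regions had an adjusted p of 0.999919 each. The promoter of Slc39a13, a zinc transporter gene upstream of Spi1, had the lowest unadjusted limma p, 0.0506, with a difference in normal score of -0.62 ± 0.293 (SE) between 4xIOP and control. Its folds were 3.90, 3.44 and 4.66 in the control lists and 3.07, 3.03 and 3.02 in the 4xIOP lists. The region is named because its p was the lowest of the 8, which is no evidence of a change. The promoter of Gm49427 in the Cx3cr1 window differed by -0.69 ± 0.353 (SE; limma, unadjusted p = 0.0668). At the other 6 regions the differences lay between -0.49 and 0.54, each with an unadjusted limma p of at least 0.215. No region attributable to a microglia identity gene itself was called in all 6 lists, and the strength of such a region could therefore not be compared in limma.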

How the data were processed

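H3K27ac ChIP-seq peaks of 6 retinas were analysed. The deposited peak lists, which the authors called for each sample separately, give each peak's fold enrichment over local background, its -log10 p and q value and a score derived from the q value, which was not used. The submitters' processing notes name STAR 2.7.8a, MACS2, HOMER, bedtools 2.29.2 and mm10, without their roles. Because fold enrichment is relative to the local background, it understates strong signal within broad acetylated domains. Whole fragments at each summit were recovered from the fold and the -log10 p (tolerance 0.001 on the -log10 p).

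Promoters were taken as 2.5 kb to both sides of any TSS in the GENCODE vM21 basic annotation, and a window added the gene body and 20 kb on either side, with an overlap of at least 1 bp. Groups and replicate numbers came from the labels. The labels do not say that the replicates are separate animals, so p-values measure only the spread between these samples. The paper calls its H3K27ac samples biological replicates, with a smaller n than the 3 lists per group used here. Shares and peak numbers were compared by two-sided exact permutation tests over lists, the replicate block by exact sign-flip tests, and regions called in all 6 lists by limma 3.58.1 (R 4.3.3) on normal scores of fold ranks, with Benjamini-Hochberg adjustment. A planned sign-flip test of differences within lists is not reported, because a member share of 0% in every list fixes its sign. Python 3.11.15, numpy 2.4.6, scipy 1.17.1 and pandas 2.3.3 were used. The limma step and the recovery of fragments were tested on simulated data. Counting error, antibody efficiency and input are not separable from the lists.

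The member genes and the other gene lists were chosen with earlier results of these data known. All 10 members were named, as were, from each other list, up to 5 genes marked in the most lists (ties by the mean fold percentile), and the genes at whose TSS a window peak lay. Other genes of a list are named as examples of its marked or unmarked members, chosen after their values were seen. Some genes and a sequence are not reported here. Of the activated microglia genes, 11 of 12 symbols were found. RefSeq promoter sequences were found for 6 members. Alternatives covered the peak threshold, the list length, the overlap, promoter and flank width, the annotation, neighbouring genes, the carried names, the shortest peak of a list, the replicate block and leaving out each list.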

Additional observations from a re-analysis of the deposited data

How the results depend on the processing

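The share of marked promoters among the microglia identity genes stayed at 0% in both groups under all 15 alternatives run, and limma called 0 regions under all 9. Of the promoter alternatives, only the use of all GENCODE starts could have added a mark. The others drop peaks or lists, narrow the promoter or regroup the lists, so 0% was fixed for them. A promoter wider than 2.5 kb was not run. The difference from all protein-coding genes was -43.6 to -48.0 points with stricter, fewer, narrower or summit-based promoter peaks, and -46.5 to -49.0 with any of the lists left out. The comparisons of 4xIOP with control of the windows had no stable sign. The difference in the share of genes with a window peak (4xIOP minus control) was -10 points with peaks of -log10 q of at least 5, -10 with only the lists whose carried name is that of their label (1 list against 1, with no test), and, chosen after seeing the data, 10 and -5 within lists whose shortest peak was above and below 200 bp. With the lists of matching name, window peaks differed by -8 and own peaks by 1. A flank of 5 kb in place of 20 kb gave a difference of 0 in the share and of -0.333 in window peaks. With the 16195 strongest peaks of each list, the difference in this share was 10 points (exact permutation test, p = 0.3), in window peaks 3.67 (exact permutation test, p = 0.3) and in own peaks 1.33 (p = 0.5, exact permutation test). Own peaks differed by -1.17 to 0.833 with any of the lists left out, by 0.333 without control replicate 1 and 0.833 without 4xIOP replicate 2, and by -2.5 and 2 within lists whose shortest peak was above and below 200 bp. The causes were not tested. Without peaks at the TSS of another gene, and chosen after seeing the data, the windows held 1, 1 and 6 peaks in the control lists and 4, 2 and 2 in the 4xIOP lists, and control replicate 3 thus held 6 of the 8 control peaks.

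The labels number the replicates 1 to 3 in both groups without saying that a number marks a pair of eyes of 1 mouse. Same-numbered lists did not deviate together over the 10529 regions (correlations of -0.0209, -0.0573 and -0.146), so the numbers were not taken as pairs. With the replicate block the differences were 0 for marked promoters, 3.33 points for genes with a window peak, -4.33 for window peaks (exact sign-flip test, p = 0.25, the smallest that 3 pairs can give) and -0.333 for own peaks, and limma called 0 regions, with 289 at an unadjusted p under 0.05. Depth limits what an unmarked promoter means, since fewer than 9 to 12 fragments at a summit were not called.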
